A study of Mus musculus with 7 samples.

Results

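The genes described here are 44 regulators of chromatin that have been tied to congenital heart defects or to the development of the heart. They were chosen by name as nucleosome remodelers, histone methylation and acetylation enzymes and close partners of these, and all 44 were among the 14732 genes of the deposited table. RNA was sequenced from mouse outflow tracts (OFTs), the vessel through which the embryonic heart empties, at embryonic day 11.5. The control group, labelled wild type, had 3 pools (replicates 3, 4 and 5), and the heterozygous *Gata6 STOP/+* group had 4 (replicates 1, 3, 4 and 5). *Gata6 STOP/+* embryos carry a premature stop codon, made with CRISPR-Cas9, in 1 copy of *Gata6* in every cell. Each library stands for a pool of OFTs, described as 4 pairs, so differences between embryos within a pool are averaged. The series' design text describes fewer pools than the 7 that are labelled, and all 7 were used. Values are in CPM, read counts scaled to a common library size, and are listed by replicate number within each group. The pools had between 17783655 and 34467710 reads on listed genes, and the fewest reads for any member in any pool was 658.

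Chromatin regulators act on the packing of DNA around histones. Remodelers slide or evict nucleosomes with the energy of ATP, while writers and erasers add or remove methyl, acetyl and ubiquitin groups that other proteins read. In the developing heart many of them are needed in both copies, and loss of 1 copy of *CHD7*, *KMT2D*, *NIPBL* or *CREBBP* causes syndromes in which heart defects are frequent.

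*Gata6* itself was at 315, 257 and 286 CPM in the control pools and 268, 203, 219 and 217 CPM in the *Gata6 STOP/+* pools, with a fold change of −0.34 on the log_2_ scale (s.e. 0.0987, limma unadjusted *P*-value=0.00578, adjusted *P*-value=0.389). With the replicate number as a block, edgeR's likelihood ratio test called *Gata6* (−0.42 on the log_2_ scale, adjusted *P*-value=0.0165), and none of the other settings did. That fit leaves replicate 1, which has no control of its number, out of the comparison, and limma without this pool gave the same −0.42 as limma with the block. Replicate 1 of the *Gata6 STOP/+* group, the highest of its group, lay above the lowest control pool, and the other *Gata6 STOP/+* pools lay below all controls. The labelled tissue was checked against markers of the cell types that a dissected OFT can hold. The 5 markers of OFT myocardium were all listed, led by *Myh7*, and summed to 18946, 17477 and 16603 CPM in the control pools and 13115, 18912, 16984 and 16795 CPM in the *Gata6 STOP/+* pools. The 4 smooth muscle markers, led by *Acta2*, summed to 2889, 2522 and 2441 CPM in the control pools and 2547, 3239, 3397 and 2655 CPM in the *Gata6 STOP/+* pools. Replicate 1 of the *Gata6 STOP/+* group was the lowest of the 7 pools for myocardium. The 5 cushion mesenchyme markers, led by *Postn*, summed to 1162, 882 and 1111 CPM in the control pools and 977, 668, 823 and 806 CPM in the *Gata6 STOP/+* pools, and the 5 endothelial and endocardial markers, led by *Cdh5*, to 685, 775 and 601 CPM in the control pools and 801, 664, 818 and 720.2 CPM in the *Gata6 STOP/+* pools. The defining epithelial genes *Epcam*, *Cdh1* and *Pax9* and the neural crest gene *Foxd3* were not among the listed genes. Red cell markers, led by *Hbb-y*, summed to 2412, 2074 and 5033 CPM in the control pools and 2352, 3461, 3765 and 6241 CPM in the *Gata6 STOP/+* pools, and varied more between pools than between groups. Sums for epicardium (*Upk3b* highest) were 339 and 359 CPM as means of the control and *Gata6 STOP/+* pools, for neural crest and glia (*Erbb3*) 93.0 and 72.3, for pharyngeal and foregut epithelium (*Krt8*) 91.7 and 98.3, for macrophages (*Csf1r*) 48.7 and 45.4, and for neurons (*Tubb3*) 59.8 and 55.2. Of the 44 listed markers, limma gave 0 an adjusted *P*-value under 0.05, and 5 were under it before adjustment (8.06% of all genes). In bulk tissue, fewer cells of a type and less RNA per cell cannot be told apart, and the part of cell composition in the values of the chromatin regulators was not tested.

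With limma on log_2_(CPM+0.5), 0 of the 44 and 0 of all 14732 genes (0%) passed an adjusted *P*-value of 0.05. Before adjustment 1 of the 44 was below 0.05, against 1187 of all genes (8.06%). On reads recovered from the CPM values, edgeR's likelihood ratio test called 0 of the 44 and 105 of all genes (0.713%), DESeq2 called 0 and 88 of 14729 (0.597%), and edgeR's quasi-likelihood test called 0 and 0 (0%). The groups did not overlap for 2 of the 44 (1 higher and 1 lower in *Gata6 STOP/+* pools), where 8.47% of all genes did not overlap, 4.31% with the *Gata6 STOP/+* pools higher and 4.16% with them lower. For 30 members the fold change was above 0, against 49.8% of all genes. The median log_2_ fold change of the members was 0.045, and that of all genes −0.00073. A missed threshold does not show that levels were equal, but the intervals bound the differences. With all 7 pools, the 95% confidence interval of the log_2_ fold change lay within 0.5 of 0 for all 44 members and for 77.5% of all genes. Over the members the fold change ran from −0.15 (*Kdm6a*) to 0.16 (*Kmt2c*), the lowest interval bound was −0.46 and the highest 0.34. The median standard error was 0.0674 for members and 0.0951 for all genes.

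**Figure D1:**
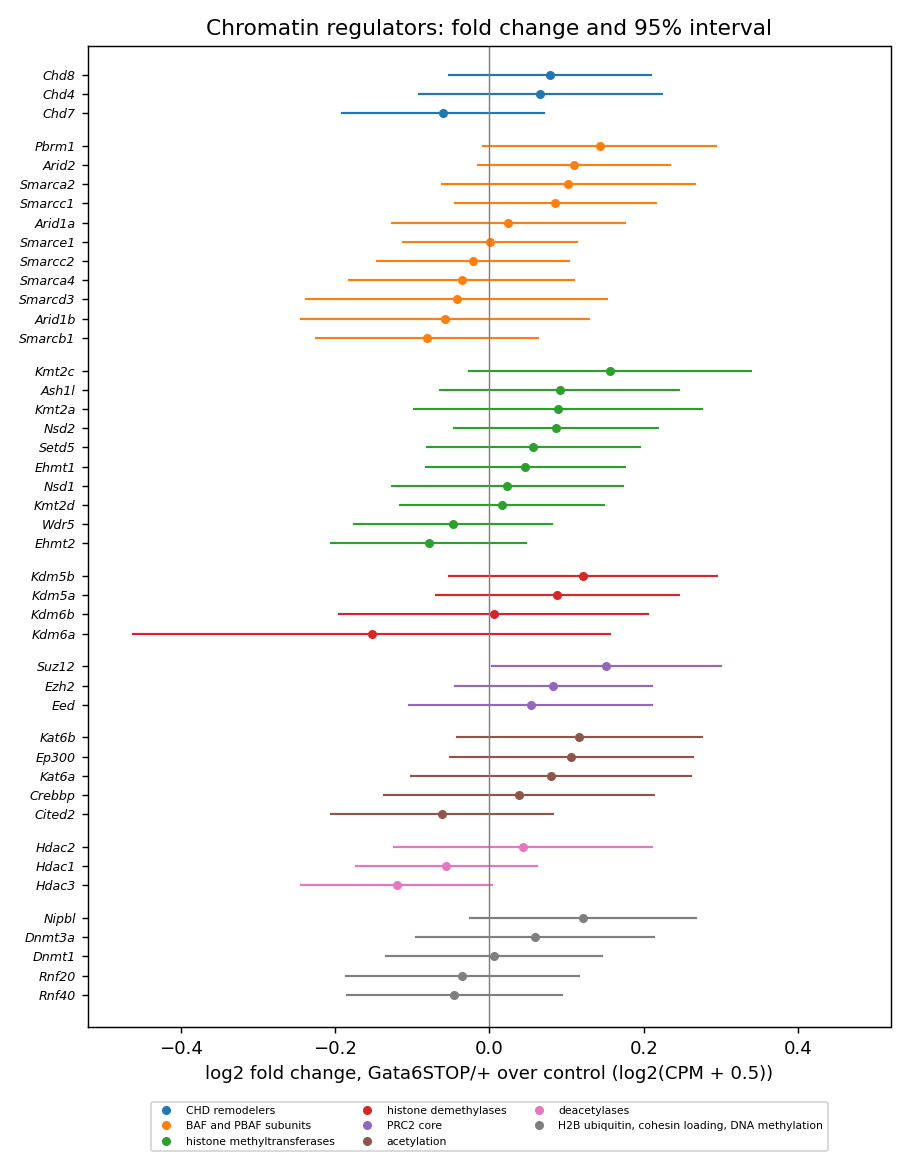
Log_2_ fold change of each of the 44 chromatin regulators (x axis, on the log_2_(CPM+0.5) scale), grouped by role and ordered by value, with points for the estimate from 3 control and 4 *Gata6 STOP/+* pools and bars for its 95% confidence interval. All bars lie within 0.5 of 0, and that of *Kdm6a* is the widest.

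Among remodelers of the CHD family, *Chd4*, the ATPase of the NuRD complex, had the highest level per length of all members, 76.2 CPM per kilobase of exon in control pools. *Chd4* was at 649.9, 611 and 572 CPM in the control pools and 653, 600.5, 623 and 681 CPM in the *Gata6 STOP/+* pools, with a fold change of 0.066 on the log_2_ scale (s.e. 0.0716, limma unadjusted *P*-value=0.375, adjusted *P*-value=0.849). The groups overlapped, with the highest value in replicate 5 of the *Gata6 STOP/+* group and the lowest in control replicate 5. *Chd8*, which binds β-catenin, was at 145 and 153 CPM as means of the control and *Gata6 STOP/+* pools, or on the log_2_ scale a difference of 0.079. *Chd7*, the gene of CHARGE syndrome, was at 97.8 and 93.7 CPM, a log_2_ fold change of −0.061. Of 29 partners in NuRD, CHD and deacetylase complexes, 28 were listed, and 0 passed the adjusted threshold by limma. Of them 2 had an unadjusted *P*-value under 0.05 (8.06% of all genes). *Gatad2b*, a NuRD scaffold, was at 97.2, 95.5 and 92.9 CPM in the control pools and 108, 99.1, 101 and 111 CPM in the *Gata6 STOP/+* pools, with a fold change of 0.14 on the log_2_ scale (s.e. 0.0591, limma unadjusted *P*-value=0.0431, adjusted *P*-value=0.598). Its paralog *Gatad2a* was at 151, 142 and 138 CPM in the control pools and 129, 134, 138 and 137 CPM in the *Gata6 STOP/+* pools, with a fold change of −0.095 on the log_2_ scale (s.e. 0.0558, limma unadjusted *P*-value=0.117, adjusted *P*-value=0.720). The groups did not overlap for either gene, as for 8.47% of all genes, *Gatad2b* being higher and *Gatad2a* lower in *Gata6 STOP/+* pools. *Chd2*, another CHD remodeler, was at 85.8, 82.9 and 80.3 CPM in the control pools and 97.1, 85.7, 90.2 and 92.3 CPM in the *Gata6 STOP/+* pools, with a fold change of 0.14 on the log_2_ scale (s.e. 0.0606, limma unadjusted *P*-value=0.0463, adjusted *P*-value=0.602). Its groups overlapped, because control replicate 3 was level with the lowest *Gata6 STOP/+* pool. *Sirt1*, a NAD-dependent deacetylase, was at 28.1, 29.3 and 29.6 CPM in the control pools and 35.6, 30.2, 30.02 and 30.8 CPM in the *Gata6 STOP/+* pools, with a fold change of 0.12 on the log_2_ scale (s.e. 0.0777, limma unadjusted *P*-value=0.145, adjusted *P*-value=0.741). The controls of *Sirt1* lay below all *Gata6 STOP/+* pools, and replicate 1 stood well above the rest.

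The BAF and PBAF complexes use *Smarca4* or *Smarca2* as their ATPase. *Smarca4* (BRG1) was at 392, 350.2 and 343 CPM in the control pools and 348, 339, 349 and 373 CPM in the *Gata6 STOP/+* pools, with a fold change of −0.036 on the log_2_ scale (s.e. 0.0662, limma unadjusted *P*-value=0.596, adjusted *P*-value=0.917). *Smarca2* (BRM) was at 42.5, 45.0 and 36.8 CPM in the control pools and 44.7, 44.5, 43.6 and 44.7 CPM in the *Gata6 STOP/+* pools, with a fold change of 0.10 on the log_2_ scale (s.e. 0.0743, limma unadjusted *P*-value=0.198, adjusted *P*-value=0.782). Control replicate 3 was the highest pool for *Smarca4*, and the other controls lay within the *Gata6 STOP/+* range. For *Smarca2*, control replicate 4 lay above all *Gata6 STOP/+* pools and the other controls below them. Without control replicate 5 the fold change of *Smarca2* was 0.021, and without control replicate 4 it was 0.16, on the log_2_ scale. Per kilobase of exon, *Smarca4* was at 55.9 and *Smarca2* at 2.90 CPM in control pools, the former among the 3 highest and the latter among the 3 lowest of the 44 by this length. The ratio of *Smarca4* to *Smarca2* per kilobase was 20.3, 17.2 and 20.51 in the control pools and 17.2, 16.8, 17.6 and 18.4 in the *Gata6 STOP/+* pools. It depended on the gene length used, at 19.3 as the control mean with the union of exons and 8.15 with the longest transcript. *Arid2*, the subunit that targets PBAF, was 1 of 2 members whose groups did not overlap. It lies on chromosome 15, 96287518 to 96404992 (GRCm38), and was at 115, 119 and 119 CPM in the control pools and 135, 124, 122 and 128 CPM in the *Gata6 STOP/+* pools, with a fold change of 0.11 on the log_2_ scale (s.e. 0.0562, limma unadjusted *P*-value=0.0781, adjusted *P*-value=0.673). All *Gata6 STOP/+* pools lay above the controls, although the lowest of them exceeded the highest control pool by little, and replicate 1 was the highest. With values centred in each pool by class of transcript length, chosen after seeing the data, the log_2_ fold change of *Arid2* was 0.058. *Pbrm1* (BAF180), the other PBAF-specific member, chosen after its values were seen, was at 166, 189 and 170.0 CPM in the control pools and 198, 184, 183 and 207 CPM in the *Gata6 STOP/+* pools, with a fold change of 0.14 on the log_2_ scale (s.e. 0.0685, limma unadjusted *P*-value=0.0611, adjusted *P*-value=0.647), and its groups overlapped at control replicate 4. The remaining subunits had fold changes from −0.081 to 0.085 on the log_2_ scale, and these did not set them clearly apart from *Arid2*. Those of the BAF-specific *Arid1a* and *Arid1b* were 0.025 and −0.058, of the scaffolds *Smarcc1* and *Smarcc2* 0.085 and −0.022, of the core subunit *Smarcb1* −0.081 and of *Smarce1* 0.00054, all on the log_2_ scale. *Smarcd3* (BAF60c), the subunit enriched in the heart, was at 134 and 130.4 CPM as means of the control and *Gata6 STOP/+* pools, or on the log_2_ scale a difference of −0.042. Over 2466 bases its exons lie opposite those of *Chpf2*, and the use of strand in counting is not given in the sources used here, so its reads may include those of *Chpf2*. Of 18 further genes of BAF, PBAF and other remodelers, 17 were listed, and 0 had an unadjusted limma *P*-value under 0.05 (8.06% of all genes). *Ss18* was at 144, 144 and 149 CPM in the control pools and 156, 149, 159 and 154 CPM in the *Gata6 STOP/+* pools, with a fold change of 0.080 on the log_2_ scale (s.e. 0.0518, limma unadjusted *P*-value=0.151, adjusted *P*-value=0.743). *Actl6a* was at 76.6, 76.1 and 78.4 CPM in the control pools and 73.8, 75.2, 75.2 and 74.6 CPM in the *Gata6 STOP/+* pools, with a fold change of −0.044 on the log_2_ scale (s.e. 0.0517, limma unadjusted *P*-value=0.414, adjusted *P*-value=0.865). Both encode BAF subunits, and their groups did not overlap (8.47% of all genes), *Ss18* being higher and *Actl6a* lower in *Gata6 STOP/+* pools.

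Of the histone methyltransferases and their cofactor, 8 of 10 had a fold change above 0, the largest being that of *Kmt2c*. *Kmt2c* and *Kmt2d* methylate histone H3 lysine 4 at enhancers, and *Kmt2d* is the main gene of Kabuki syndrome. *Kmt2c* was at 63.6, 72.7 and 67.1 CPM in the control pools and 82.5, 65.5, 78.0 and 77.0 CPM in the *Gata6 STOP/+* pools, with a fold change of 0.16 on the log_2_ scale (s.e. 0.0830, limma unadjusted *P*-value=0.0867, adjusted *P*-value=0.681). Its groups overlapped, since replicate 3 of the *Gata6 STOP/+* group lay among the controls and the other *Gata6 STOP/+* pools above them. Leaving out each pool in turn gave 0.11 to 0.22 for *Kmt2c* on the log_2_ scale, and the Y-linked covariate, chosen after seeing the data, 0.090. *Kmt2d* was at 149.8 and 151 CPM as group means, a log_2_ fold change of 0.016, and per kilobase it exceeded *Kmt2c* by a ratio of 2.26±0.240 and 2.05±0.175 (s.d.; control, *n*=3, and *Gata6 STOP/+*, *n*=4). *Kmt2a*, which methylates the same lysine at promoters, had a log_2_ fold change of 0.089, and *Wdr5*, a subunit that the KMT2 complexes share, −0.047. The enzymes for lysine 36 of histone H3, *Nsd1* (Sotos syndrome), *Nsd2* and *Ash1l*, had log_2_ fold changes of 0.023, 0.086 and 0.091. For the lysine 9 enzymes *Ehmt1* and *Ehmt2* they were 0.047 and −0.079, and for *Setd5*, a SET domain protein, 0.057. All 20 partner genes of H3 lysine 4 and lysine 36 methylation were listed, and 0 passed the adjusted limma threshold. Of them 3 had an unadjusted *P*-value under 0.05 (8.06% of all genes). *Smyd2*, a lysine methyltransferase, was at 88.8, 94.4 and 86.4 CPM in the control pools and 63.7, 84.3, 80.5 and 75.4 CPM in the *Gata6 STOP/+* pools, with a fold change of −0.25 on the log_2_ scale (s.e. 0.0897, limma unadjusted *P*-value=0.0190, adjusted *P*-value=0.517). Its *Gata6 STOP/+* pools lay below all controls, and replicate 1 was the lowest. Over all settings the value of *Smyd2* ran from −0.30 to −0.12 on the log_2_ scale. The other 2 were the demethylase genes *Kdm5c* and *Kdm5d*, which lie on the X and Y chromosomes.

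*Kdm6a* (UTX), an X-linked demethylase of histone H3 lysine 27, had the widest interval of the 44 members and is described in full for that reason, chosen after its values were seen. It was at 43.7, 62.8 and 53.7 CPM in the control pools and 52.2, 55.6, 38.0 and 45.9 CPM in the *Gata6 STOP/+* pools, with a fold change of −0.15 on the log_2_ scale (s.e. 0.140, limma unadjusted *P*-value=0.300, adjusted *P*-value=0.819). Control replicate 4 was the highest pool and replicate 4 of the *Gata6 STOP/+* group the lowest, and the groups overlapped. Leaving out each pool in turn moved the value of *Kdm6a* widely, over −0.29 to −0.029 on the log_2_ scale, and the interval was computed with all 7 pools. *Kdm6a* escapes X inactivation, so that female cells use both copies, and its values were set beside those of sex-linked genes. *Xist*, the RNA of the inactive X, was at 362, 662 and 507 CPM in the control pools and 157, 539, 1.30 and 197 CPM in the *Gata6 STOP/+* pools. The Y-linked *Uty*, the paralog of *Kdm6a*, was at 11.8, 5.62 and 10.7 CPM in the control pools and 23.6, 7.93, 21.8 and 20.3 CPM in the *Gata6 STOP/+* pools, and *Ddx3y* at 33.4, 12.3 and 22.3 CPM in the control pools and 52.8, 24.1, 61.8 and 55.9 CPM in the *Gata6 STOP/+* pools. Replicate 4 of the *Gata6 STOP/+* group was almost without *Xist*, and the Y-linked genes were highest in *Gata6 STOP/+* replicates 1, 4 and 5. *Kdm5c*, which also escapes X inactivation and acts on H3 lysine 4, was at 162, 184 and 169 CPM in the control pools and 156, 149.7, 137 and 148 CPM in the *Gata6 STOP/+* pools, with a fold change of −0.22 on the log_2_ scale (s.e. 0.0652, limma unadjusted *P*-value=0.00672, adjusted *P*-value=0.401). The Y-linked *Kdm5d* was at 22.4, 9.56 and 17.0 CPM in the control pools and 42.6, 17.0, 41.9 and 32.1 CPM in the *Gata6 STOP/+* pools, with a fold change of 1.01 on the log_2_ scale (s.e. 0.323, limma unadjusted *P*-value=0.0101, adjusted *P*-value=0.436). The controls of *Kdm5c* lay above all *Gata6 STOP/+* pools, whereas for *Kdm5d* replicate 3 of the *Gata6 STOP/+* group lay among the controls. With the mean of the Y-linked genes *Ddx3y*, *Eif2s3y* and *Uty* as a covariate, an alternative chosen after seeing the data, the log_2_ fold change of *Kdm6a* was 0.16 and that of *Kdm5c* −0.14. Over all settings, this one included, the value of *Kdm5d* ran from 0.057 to 1.3 on the log_2_ scale. Since the covariate was itself higher in most *Gata6 STOP/+* pools, it takes up part of the difference between genotypes. Of the other demethylases, *Kdm6b*, for the same lysine as *Kdm6a*, had a log_2_ fold change of 0.0054, and *Kdm5a* and *Kdm5b*, for lysine 4, 0.088 and 0.12.

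**Figure D2:**
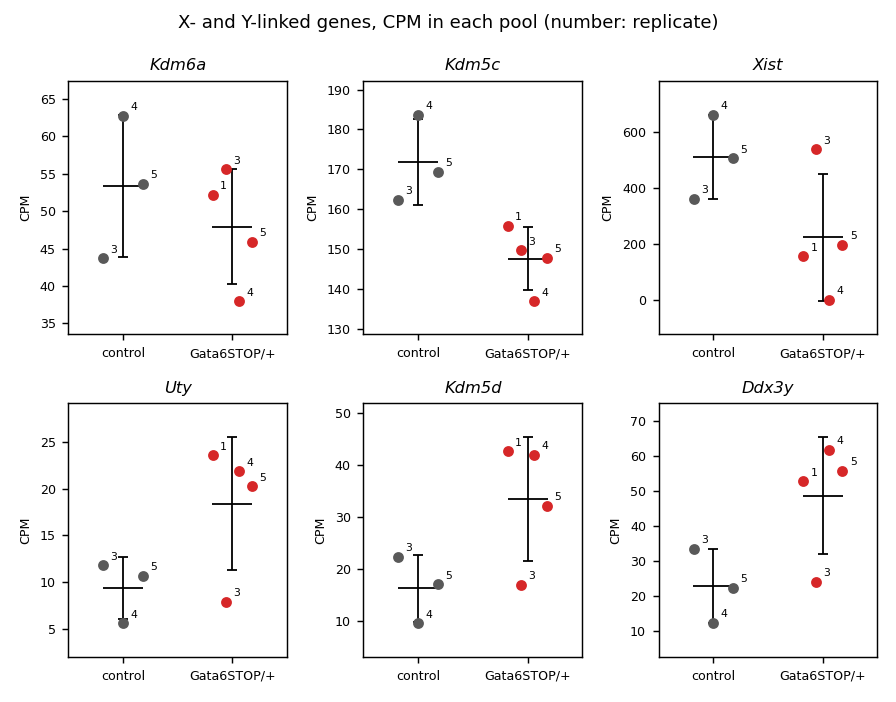
CPM (y axis, not starting at 0) of *Kdm6a*, *Kdm5c*, *Xist*, *Uty*, *Kdm5d* and *Ddx3y* in the 3 control and 4 *Gata6 STOP/+* pools (points, numbered by replicate), with the group mean (line) and s.d. (bar). Replicate 4 of the *Gata6 STOP/+* group has the lowest *Xist* and *Kdm6a* values.

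The core of Polycomb repressive complex PRC2, which methylates H3 lysine 27, includes the only member with an unadjusted *P*-value under 0.05. *Suz12*, the scaffold subunit (chromosome 11, 79993106 to 80034123, GRCm38), was at 77.7, 89.7 and 87.9 CPM in the control pools and 89.3, 95.9, 93.4 and 99.1 CPM in the *Gata6 STOP/+* pools, with a fold change of 0.15 on the log_2_ scale (s.e. 0.0671, limma unadjusted *P*-value=0.0458, adjusted *P*-value=0.601). The groups overlapped, since replicate 1 of the *Gata6 STOP/+* group lay below control replicate 4, and control replicate 3 was the lowest pool. Leaving out each pool in turn gave fold changes of 0.088 to 0.19 for *Suz12* on the log_2_ scale, and the unadjusted *P*-value was under 0.05 only without control replicate 4 or *Gata6 STOP/+* replicate 1. *Ezh2*, the catalytic subunit, was at 101 and 107 CPM as group means, a log_2_ fold change of 0.083, and *Eed*, which binds the methylated tail, at 36.4 and 37.8 CPM, a log_2_ fold change of 0.053. The ratio of *Ezh2* to its paralog *Ezh1* per kilobase was 5.46, 5.68 and 5.62 in the control pools and 5.82, 5.80, 5.54 and 6.21 in the *Gata6 STOP/+* pools. All 22 further PRC2 and PRC1 genes were listed, and 0 passed the adjusted limma threshold. Of them 3 had an unadjusted *P*-value under 0.05 (8.06% of all genes). *Cbx7*, a PRC1 subunit, was at 2.35, 1.73 and 2.86 CPM in the control pools and 1.61, 1.30, 1.79 and 1.16 CPM in the *Gata6 STOP/+* pools, with a fold change of −0.51 on the log_2_ scale (s.e. 0.202, limma unadjusted *P*-value=0.0297, adjusted *P*-value=0.554). *Phf1*, an accessory subunit of PRC2, was at 27.4, 26.3 and 28.5 CPM in the control pools and 23.7, 24.6, 25.3 and 23.5 CPM in the *Gata6 STOP/+* pools, with a fold change of −0.17 on the log_2_ scale (s.e. 0.0700, limma unadjusted *P*-value=0.0343, adjusted *P*-value=0.576). *Phf19*, its paralog, was at 2.88, 4.66 and 3.42 CPM in the control pools and 2.32, 2.39, 2.44 and 3.14 CPM in the *Gata6 STOP/+* pools, with a fold change of −0.42 on the log_2_ scale (s.e. 0.1804, limma unadjusted *P*-value=0.0407, adjusted *P*-value=0.595). *Phf1* was lower in all *Gata6 STOP/+* pools than in the controls, while *Cbx7* and *Phf19*, both with few reads, overlapped between groups.

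Acetyltransferases and *Cited2* gave no call. *Ep300* and *Crebbp*, paralogous coactivators, had log_2_ fold changes of 0.11 and 0.038, and their ratio per kilobase was 1.30±0.102 and 1.36±0.112 (s.d.) in control (*n*=3) and *Gata6 STOP/+* pools (*n*=4). *Cited2*, a coactivator partner of both that is needed for septation of the OFT, was at 64.3 and 61.5 CPM as group means, a log_2_ fold change of −0.061. *Kat6b* had the lowest level of the 44 per kilobase of the union of exons, 2.701 CPM in control pools. It was at 47.8, 46.5 and 42.1 CPM in the control pools and 47.7, 47.6, 48.1 and 53.8 CPM in the *Gata6 STOP/+* pools, with a fold change of 0.12 on the log_2_ scale (s.e. 0.0719, limma unadjusted *P*-value=0.134, adjusted *P*-value=0.736). Replicate 5 of the *Gata6 STOP/+* group was the highest, and the other *Gata6 STOP/+* pools lay close to control replicate 3, so the groups overlapped. Its paralog *Kat6a*, which acts on H3 like *Kat6b*, had a log_2_ fold change of 0.079. Of 18 partner genes, 17 were listed, and 0 passed the adjusted limma threshold, with 1 at an unadjusted *P*-value under 0.05 (8.06% of all genes). That gene was *Hif1a*, a transcription factor that binds the coactivators, at 278, 313 and 298 CPM in the control pools and 319.9, 354, 334 and 340.1 CPM in the *Gata6 STOP/+* pools, with a fold change of 0.19 on the log_2_ scale (s.e. 0.0632, limma unadjusted *P*-value=0.0139, adjusted *P*-value=0.466). All *Gata6 STOP/+* pools lay above the controls.

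Among the class I deacetylases, *Hdac3*, the enzyme of the NCOR complexes, was the other member whose groups did not overlap. It was at 92.2, 88.1 and 89.2 CPM in the control pools and 85.2, 85.6, 80.3 and 79.5 CPM in the *Gata6 STOP/+* pools, with a fold change of −0.12 on the log_2_ scale (s.e. 0.0561, limma unadjusted *P*-value=0.0564, adjusted *P*-value=0.632). All *Gata6 STOP/+* pools lay below the controls, and the gap between the groups was narrower than the spread within the *Gata6 STOP/+* group. Leaving out each pool in turn gave −0.14 to −0.10 on the log_2_ scale. *Hdac1* was among the 3 highest members per length, at 44.5 CPM per kilobase of exon in control pools. It was at 153, 157 and 149.6 CPM in the control pools and 153, 144, 144 and 149 CPM in the *Gata6 STOP/+* pools, with a fold change of −0.056 on the log_2_ scale (s.e. 0.0534, limma unadjusted *P*-value=0.319, adjusted *P*-value=0.827). The groups overlapped. Of the 60-base stretches of its longest transcript, 56.4% also occur in *Gm10093*, a gene that was not listed, so part of its reads could have been split and its level is uncertain. *Hdac2* had a log_2_ fold change of 0.044, and the ratio of *Hdac1* to *Hdac2* per kilobase was 1.13, 1.14 and 0.910 in the control pools and 0.967, 0.962, 1.02 and 0.987 in the *Gata6 STOP/+* pools.

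**Figure D3:**
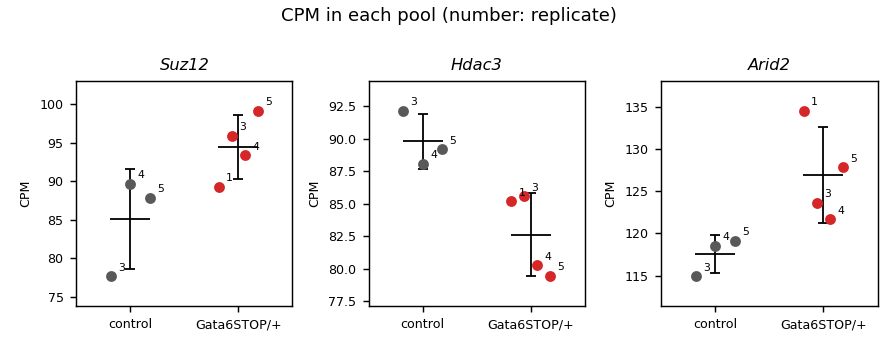
CPM (y axis, not starting at 0) of *Suz12*, *Hdac3* and *Arid2* in the 3 control and 4 *Gata6 STOP/+* pools (points, numbered by replicate), with the group mean (line) and s.d. (bar). The groups are apart for *Hdac3* (lower in *Gata6 STOP/+*) and *Arid2* (higher) and overlap for *Suz12*.

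The remaining members act on histone H2B, cohesin or DNA. *Rnf20* and *Rnf40*, which together attach ubiquitin to H2B, had log_2_ fold changes of −0.035 and −0.046. *Nipbl*, which loads cohesin onto DNA and is the main gene of Cornelia de Lange syndrome, was at 103 and 113 CPM as group means, with a fold change of 0.12 on the log_2_ scale (s.e. 0.0662, limma unadjusted *P*-value=0.0944, adjusted *P*-value=0.691). Over all settings the value of *Nipbl* ran from 0.070 to 0.15 on the log_2_ scale. For the maintenance methyltransferase *Dnmt1* and the de novo enzyme *Dnmt3a* the log_2_ fold changes were 0.0060 and 0.060. All 22 partner genes of these members were listed. None passed the adjusted limma threshold, and 2 had an unadjusted *P*-value under 0.05 (8.06% of all genes). For 7 of the 22, all *Gata6 STOP/+* pools lay above the controls, as they did for 4.31% of all genes. *Tet1*, which oxidizes methylated cytosine, was at 27.7, 26.7 and 26.7 CPM in the control pools and 30.9, 30.7, 33.0 and 31.0 CPM in the *Gata6 STOP/+* pools, with a fold change of 0.21 on the log_2_ scale (s.e. 0.0655, limma unadjusted *P*-value=0.00789, adjusted *P*-value=0.419). *Tet2* was at 43.6, 42.2 and 38.8 CPM in the control pools and 45.4, 44.8, 47.1 and 45.6 CPM in the *Gata6 STOP/+* pools, with a fold change of 0.14 on the log_2_ scale (s.e. 0.0639, limma unadjusted *P*-value=0.0540, adjusted *P*-value=0.629). *Tet3*, chosen after its values were seen, was also apart, at 102, 106 and 108 CPM in the control pools and 111, 109.7, 110.2 and 110.5 CPM in the *Gata6 STOP/+* pools, with a fold change of 0.067 on the log_2_ scale (s.e. 0.0511, limma unadjusted *P*-value=0.216, adjusted *P*-value=0.788). The paralogs shared a direction, and the lowest *Gata6 STOP/+* pool of each was above the highest control pool. They were named for such values, and the shared direction was not tested. The longest transcripts of *Tet1*, *Tet2* and *Tet3* have 14369, 9179 and 10904 bases. Listed genes over 8000 bases had a median log_2_ fold change of 0.062, close to that of *Tet3*. Over all settings the value ran from 0.16 to 0.23 for *Tet1* and from 0.087 to 0.17 for *Tet2*. The part of transcript length in these values was not tested. *Ube2b*, the conjugating enzyme used by *Rnf20* and *Rnf40*, was at 102, 111 and 110.2 CPM in the control pools and 113, 127, 116 and 117 CPM in the *Gata6 STOP/+* pools, with a fold change of 0.13 on the log_2_ scale (s.e. 0.0612, limma unadjusted *P*-value=0.0516, adjusted *P*-value=0.625). *Esco2*, a cohesin acetyltransferase of dividing cells, was at 21.2, 23.3 and 20.9 CPM in the control pools and 23.2, 26.3, 23.4 and 26.6 CPM in the *Gata6 STOP/+* pools, with a fold change of 0.18 on the log_2_ scale (s.e. 0.0828, limma unadjusted *P*-value=0.0485, adjusted *P*-value=0.611). *Ube2b* did not overlap between groups and *Esco2* did, because replicate 1 of the *Gata6 STOP/+* group lay just below control replicate 4. Since *Dnmt1* and *Ezh2* are used by dividing cells, 21 genes of replication and cell division were read beside them. Of these, 9 had a fold change above 0 and 0 passed the adjusted limma threshold, with 1 at an unadjusted *P*-value under 0.05 (8.06% of all genes). Their median log_2_ fold change was −0.0082. The exception was *Gins2*, a replication factor, at 35.9, 35.4 and 39.6 CPM in the control pools and 30.3, 32.7, 32.8 and 32.8 CPM in the *Gata6 STOP/+* pools, with a fold change of −0.20 on the log_2_ scale (s.e. 0.0696, limma unadjusted *P*-value=0.0162, adjusted *P*-value=0.497). Its *Gata6 STOP/+* pools all lay below the controls.

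Levels were compared between members per kilobase of exon. In control pools the median of the 44 was 13.0 CPM per kilobase, against 5.61 for all listed genes with a length, and 41 of the 44 lay above the latter. Levels ran from 2.701 (*Kat6b*) to 76.2 (*Chd4*), a range of 28.2-fold. The order depends on the length used: per kilobase of the longest transcript the 3 highest were *Chd4*, *Smarce1* and *Hdac1*, and the 3 lowest *Kmt2a*, *Kat6b* and *Kmt2c*, with *Kmt2c* last. Ratios of paralogs were computed for 18 pairs, and the groups overlapped for all of them. *Arid1a* exceeded *Arid1b* per kilobase by ratios of 4.23, 4.61 and 4.60 in the control pools and 4.47, 4.85, 4.85 and 4.82 in the *Gata6 STOP/+* pools, and *Kat6a* exceeded *Kat6b* by 3.50, 4.002 and 3.93 in the control pools and 4.17, 3.33, 3.80 and 3.56 in the *Gata6 STOP/+* pools. *Kdm5b* exceeded *Kdm5a* by 1.42±0.0358 and 1.45±0.0254 (s.d.) in control (*n*=3) and *Gata6 STOP/+* pools (*n*=4), and *Ehmt2* exceeded *Ehmt1* by 2.44±0.179 and 2.23±0.0644. Among the others, *Nsd1* to *Nsd2* was at 1.26±0.00952 and 1.21±0.0659, *Chd8* to *Chd7* at 1.24±0.0762 and 1.36±0.0928, *Dnmt3a* to *Dnmt1* at 0.5996±0.0249 and 0.623±0.0471, *Smarcc1* to *Smarcc2* at 0.779±0.0595 and 0.838±0.0434, *Rnf20* to *Rnf40* at 0.772±0.0731 and 0.778±0.0722 and *Smarcd1* to *Smarcd3* at 0.696±0.0343 and 0.714±0.0813, with the control value first and the *Gata6 STOP/+* value after it. The ratio of *Kdm6b* to *Kdm6a* was 4.43, 2.53 and 2.82 in the control pools and 3.16, 2.73, 4.80 and 3.77 in the *Gata6 STOP/+* pools. It was highest in the pools with the lowest *Kdm6a*, which follows in large part from *Kdm6a* being its denominator. With the longest transcript as the length, the means of *Nsd1* to *Nsd2* and of *Rnf20* to *Rnf40* crossed 1 in both groups, and that of *Hdac1* to *Hdac2* in the *Gata6 STOP/+* pools, from 0.984 to 1.21. The control mean of *Kat6a* to *Kat6b* was 3.81 with the union of exons and 1.76 with the longest transcript.

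The members have long transcripts, with a median of 6726 bases for the longest annotated transcript against 3359.5 for all listed genes, and their fold changes were compared by it. Of the 31 members over 5000 bases, 25 had a fold change above 0 (median log_2_ fold change 0.066), and of the 13 shorter ones 5 did (median −0.035). Over all listed genes the median was 0.043 above 5000 bases and −0.014 at or below it. The shift was carried by some of the pools. Against the control means, the median log_2_ difference of the members was 0.072, −0.029, 0.051 and 0.082 in *Gata6 STOP/+* replicates 1, 3, 4 and 5, and 0.0019, 0.010 and −0.014 in the control pools. Listed genes over 8000 bases had medians of 0.13, −0.015, 0.045 and 0.11 in the same *Gata6 STOP/+* pools, and those under 1000 bases −0.16, 0.016, −0.012 and −0.13. Replicates 1 and 5 of the *Gata6 STOP/+* group were thus high for long and low for short genes, and replicate 3 was close to the controls for both. Of the 44 members, 13 were highest in *Gata6 STOP/+* replicate 1 and 12 in replicate 5, while 13 were lowest in replicate 3. Control pools held extremes as well, with 11 members highest and 8 lowest in control replicate 3 and 9 lowest in control replicate 5. With values centred in each pool by class of transcript length, chosen after seeing the data, the members' median log_2_ fold change was 0.019 (all genes 0.0095) and 24 were above 0. With the Y-linked covariate it was 0.00082 (all genes 0.0051) with 22 above 0. The Y-linked genes were higher in *Gata6 STOP/+* replicates 1, 4 and 5 than in all controls. Their level and genotype therefore cannot be fully told apart, and this covariate takes up part of the difference between groups. With it the log_2_ fold change of *Gata6* was −0.52. The part of transcript length in the members' values beyond these settings was not tested.

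**Figure D4:**
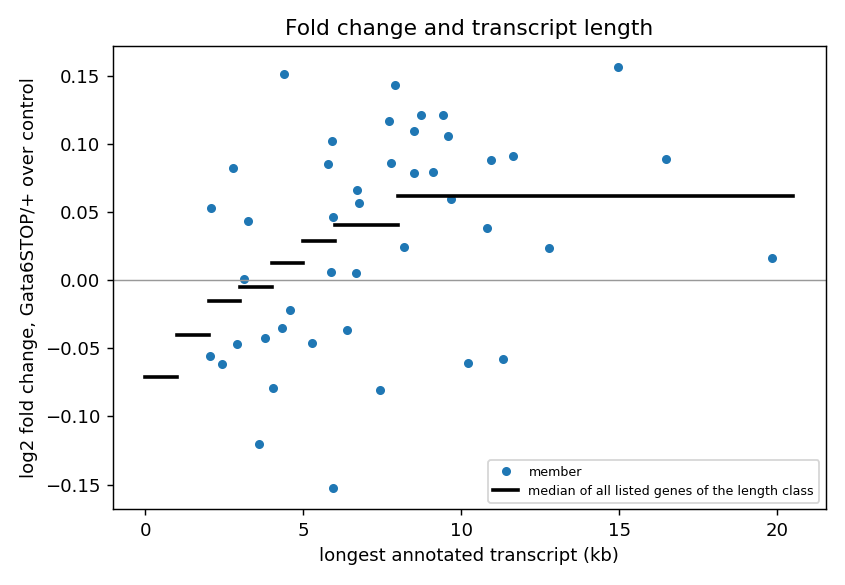
Log_2_ fold change (y axis) against the length of the longest annotated transcript in kilobases (x axis) for the 44 members (points), with the median of all listed genes in each length class (black lines). The medians of all genes run from −0.071 below 1000 bases to 0.062 above 8000 bases, and members over 5000 bases are mostly above 0.

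Since *Gata6* encodes a factor that binds GATA motifs, the promoters of the members were searched for AGATAA or AGATAG or TGATAA or TGATAG on either strand. RefSeq (GRCm38.p6) windows of 300 bases, each from the promoter table's own list of starts, were at hand for 32 of the 44 members, 41 windows in all. A motif was found in 7 of the 41 windows, those of 7 members, where 29.8% of all 32851 windows hold one. Some windows lie far inside the annotated gene, among those shown the windows of *Setd5* and *Smarcd3*. A match of these letters is a description of the sequence and no sign of binding. The stretches of 30 bases with a match are shown 5′ to 3′ on the strand of the gene with the motif in capitals, which reads as the reverse complement where the match is on the other strand.
Arid1a, chr4:133756837-133756866, minus strand: tgcccggcttggTGATAAgaactctcctgt
Chd4, chr6:125095782-125095811, plus strand: ggttattatgggTTATCTaagggaggggga
Dnmt1, chr9:20960040-20960069, minus strand: ccagtttccatcCTATCTctgtttgctcct
Ezh2, chr6:47595060-47595089, minus strand: cggagaggcgctTGATAGtgctgggggggc
Kdm6a, chrX:18162410-18162439, plus strand: ggacagacgtgcCTATCAgccaaccaccga
Setd5, chr6:113104694-113104723, plus strand: tagtaagagaccCTATCTcaagggaataag
Setd5, chr6:113104870-113104899, plus strand: ctatagcatttaAGATAAatttaagaaatt
Smarcd3, chr5:24602079-24602108, minus strand: actatttctgtcTTATCAgtgcaggaatgc

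The members with a match had log_2_ fold changes of 0.025 (*Arid1a*), 0.066 (*Chd4*), 0.0060 (*Dnmt1*), 0.083 (*Ezh2*), −0.15 (*Kdm6a*), 0.057 (*Setd5*) and −0.042 (*Smarcd3*), in both directions. *Suz12* had a window without a match.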

How the data were processed

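Libraries of polyadenylated RNA were made with a kit that marks strand. Per the submitters' processing notes and the paper's methods, reads were trimmed with Cutadapt and counted per gene with RSEM on GRCm38. The deposited table holds CPM after TMM scaling with edgeR by the authors, and each of its 14732 genes reached 1 CPM in no fewer than 3 pools. In each pool 100% of the values were whole multiples of the value of 1 read, within 0.01, so reads were recovered. Depth was 20930875, 29035529, 17783655 reads in the control pools and 28319373, 27519856, 24736761, 34467710 in the *Gata6 STOP/+* pools.

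Groups were compared with limma 3.58.1 (lmFit, eBayes with a trend, R 4.3.3) on log_2_(CPM+0.5), two-sided, over all 7 pools without covariates, with Benjamini-Hochberg adjustment over all listed genes. That scale understates changes of genes with few reads. Confidence intervals are 95% intervals of the same fit. Alternatives were constants of 0.1 and 2, a mean of at least 5 CPM, median-of-ratios scaling, the replicate block, edgeR 4.0.16 and DESeq2 1.42.0 on recovered reads, and leaving out each pool. The fits were tested on simulated data. Lengths and overlaps are from GENCODE M21 (GRCm38). The members and lists were chosen with earlier results of these data known. All members are named, with each pool's values for members at an unadjusted *P*-value under 0.05, members whose groups do not overlap and the 3 highest and 3 lowest per kilobase of exon, and for at most 4 such genes of each of 7 partner lists. *Gata6* and sex-linked genes are given beside them, and members or partners outside this rule are marked as chosen after their values were seen. The pools are separate samples, so *P*-values measure the spread between pools; pairing by number is not used here.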

Additional observations from a re-analysis of the deposited data

Results flagged for a closer look

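Within the 4 *Gata6 STOP/+* pools, the gap from the most extreme pool to its nearest neighbour was compared with the range of the 4. Of 91 sets of 4 values, 8 had a pool standing apart by this measure, and chance gives about 1 in 20. Among members, replicate 3 was apart for *Arid1a*, at 278 CPM where the other *Gata6 STOP/+* pools were at 312, 313 and 317 CPM (gap over range 0.875), and replicate 5 for *Kat6b*, at 53.8 CPM (gap over range 0.929). Among partner genes the pool apart was replicate 5 for *Phf19*, at 3.14 CPM (0.848), replicate 1 for *Sirt1*, at 35.6 CPM (0.852), replicate 4 for *Tet1*, at 33.0 CPM (0.869), and replicate 1 for *Gins2*, at 30.3 CPM (0.941). For ratios per kilobase it was replicate 1 for *Arid1a* to *Arid1b*, at 4.47 (0.917), and for *Rnf20* to *Rnf40*, at 0.885 (0.841).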

How the results depend on the processing

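No chromatin regulator had an adjusted *P*-value under 0.05 in any of the 18 alternatives. Over all genes limma gave 0 calls, 1 with a constant of 0.1, 6 with the Y-linked covariate and 14 with the replicate block, and between 0 and 13 (without control replicate 4) when 1 pool was left out; edgeR's likelihood ratio test gave 105 and DESeq2 88. The number of members at an unadjusted *P*-value under 0.05 was 1 and became 0 with edgeR's likelihood ratio test and with DESeq2. Leaving out 1 pool gave 0 to 4 such members: 3 for control replicate 4, 2 for *Gata6 STOP/+* replicate 1, 4 for *Gata6 STOP/+* replicate 3 and 0 for each other pool. For calls over all genes, these omissions gave 13, 1 and 2. The members' median log_2_ fold change was 0.00082 with the Y-linked covariate and ranged from 0.020 (without control replicate 5) to 0.070 (without *Gata6 STOP/+* replicate 3) when 1 pool was left out. The cause was not tested. The fewest reads of a member in a pool was 658, so depth bears less on members than on partner genes such as *Cbx7*, with 36.

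Same-numbered pools did not deviate together. The correlations of their deviations from the group means were −0.0084, −0.12 and −0.0016 for replicates 3, 4 and 5. Correlations of so few pools cannot decide whether the numbers pair them, and the main fit does not use the numbers. With the replicate number as a block, edgeR's likelihood ratio test called 118 genes and 0 members, and limma 14 genes and 0 members, at a members' median of 0.024. Replicate 1 of the *Gata6 STOP/+* group has no control of its number and drops out of these comparisons, and limma without it and without the block gave the same median, with 1 gene called over all genes. With the block, *Gata6* was called by edgeR's likelihood ratio test (−0.42, adjusted *P*-value=0.0165) and not by limma (−0.42, adjusted *P*-value=0.213).

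Of 792 combinations of member and setting, 750 kept the direction and 42 did not, the latter in 16 members, none of which passed the adjusted threshold. Leaving out each pool in turn gave log_2_ fold changes of −0.073 to 0.023 for *Smarca4*, −0.058 to 0.021 for *Smarcc2*, −0.11 to 0.044 for *Smarcd3*, −0.0090 to 0.017 for *Smarce1*, −0.025 to 0.068 for *Arid1a*, −0.13 to 0.016 for *Arid1b*, −0.017 to 0.055 for *Kmt2d*, −0.0060 to 0.067 for *Nsd1*, −0.064 to 0.11 for *Kdm6b*, −0.0062 to 0.13 for *Hdac2* and −0.030 to 0.034 for *Dnmt1*. The replicate block in limma gave 0.0019 for *Smarcd3* and −0.0060 for *Nsd1*. The block in edgeR's likelihood ratio test gave 0.0021 for *Smarcd3* and −0.0061 for *Nsd1*. The Y-linked covariate gave −0.052 for *Arid1a*, −0.039 for *Kmt2a*, −0.044 for *Kmt2d*, −0.017 for *Nsd1*, −0.00048 for *Kdm5b*, 0.16 for *Kdm6a*, −0.16 for *Kdm6b*, −0.084 for *Crebbp*, −0.042 for *Dnmt1* and −0.020 for *Dnmt3a*. Centring by transcript length gave −0.027 for *Arid1a*, −0.035 for *Kmt2d*, −0.028 for *Nsd1*, −0.015 for *Kdm6b*, −0.013 for *Crebbp* and −0.018 for *Dnmt1*. Among the other members, omissions kept the direction but moved the value by 1.5 times or more for *Chd4* (0.020 to 0.11), *Chd7* (−0.11 to −0.031), *Chd8* (0.046 to 0.11), *Smarca2* (0.021 to 0.16), *Smarcb1* (−0.12 to −0.050), *Smarcc1* (0.052 to 0.11), *Kmt2a* (0.028 to 0.15), *Wdr5* (−0.065 to −0.019), *Nsd2* (0.053 to 0.12), *Ash1l* (0.047 to 0.14), *Setd5* (0.019 to 0.088), *Ehmt1* (0.0063 to 0.072), *Ehmt2* (−0.12 to −0.040), *Kdm5a* (0.038 to 0.13), *Kdm5b* (0.059 to 0.17), *Kdm6a* (−0.29 to −0.029), *Ezh2* (0.045 to 0.12), *Eed* (0.013 to 0.10), *Suz12* (0.088 to 0.19), *Crebbp* (0.0021 to 0.11), *Ep300* (0.023 to 0.15), *Kat6a* (0.037 to 0.15), *Kat6b* (0.063 to 0.15), *Cited2* (−0.091 to −0.0014), *Hdac1* (−0.074 to −0.037), *Rnf20* (−0.082 to −0.0062), *Rnf40* (−0.083 to −0.015) and *Dnmt3a* (0.026 to 0.11). They did so among named partner genes for *Phf19* (−0.56 to −0.25), *Gatad2a* (−0.12 to −0.060), *Sirt1* (0.065 to 0.15) and *Tet2* (0.090 to 0.17). The Y-linked covariate and the centring were chosen after seeing the data. With the longest transcript in place of the union of exons, 37 of the 44 levels per kilobase moved by more than the s.d. of the control pools.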
